A study of Mus musculus with 6 samples.

Results

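The genes described here make up the machinery with which endocrine cells process peptide hormones and release them by regulated exocytosis. They are the SNARE genes Snap25, Stx1a and Vamp2, the calcium sensor gene Syt1, the vesicle tethering and priming genes Rab3a and Cadps, and the prohormone processing genes Pcsk1, Pcsk2 and Cpe. Members were all probe sets that the platform's annotation assigns to exactly 1 gene carrying one of these 9 symbols. The rule found 16 probe sets of 8 genes among 34848 single-gene probe sets of 18163 genes. Pcsk2, the prohormone convertase PC2, had no probe set under that rule and was not analysed here.

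RNA came from whole adrenal glands of male mice aged 3 months. All mice carried the Per2Brdm1 mutation and lacked Cry1 (Per2Brdm1/Cry1-/-, C57BL6x129Sv), so there was no group with a working clock among these arrays. After 2 weeks in a light-dark cycle they were moved to constant darkness, and glands were collected 46 h or 54 h after lights off, with 3 arrays per time point named replicates 1, B and C. The labels do not say whether arrays came from different mice, so a p-value here reflects how far the arrays of a time point scatter, part of which may be technical, and any difference in handling between the time points cannot be told apart from time.

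In chromaffin cells of the adrenal medulla, catecholamines and peptides are stored together in dense-core granules. A granule is docked by Rab3 and its effectors and primed by CAPS and Munc13 proteins. It fuses when synaptotagmin binds calcium and the SNARE proteins of the granule (VAMP) and of the plasma membrane (syntaxin and SNAP-25) zip together. Peptide precursors are cut inside the granule by the convertases PC1/3 and PC2, after which carboxypeptidase E trims the exposed basic residues.

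None of the 8 genes measured passed the test for a difference between 46 h and 54 h. The median log2 change of the 8 genes was 0.0020, against -0.02 over all 13780 genes tested, taking for each gene the brightest of its probe sets. Stx1a, the plasma membrane syntaxin, had probe sets that read in opposite directions, each without overlap between the time points. Vamp2, Syt1, Rab3a and Cpe, the other members with at least 2 probe sets past the filter, also had opposite signs. So did 52% of all such genes. Pcsk1, the convertase PC1/3, had a log2 change of -0.10 without passing, and all 3 arrays of 54 h lay below those of 46 h. Over 4 lists of partners, chosen with earlier results known, the time points did not overlap in 11 of 64 genes, against 16.3% of all genes tested. Of these 11, 6 were among the 14 genes of the prohormone processing list. By the brightest probe set, the granule genes Ptprn, Ptprn2, Scg5 and Pcsk1n were lower at 54 h and the convertases Pcsk5 and Furin higher. None of the 6 passed the test. Another probe set of Pcsk5 read lower, and the ranges of Furin were separate by a few units only.

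A filter on low values kept probe sets above the 40th percentile of mean level, which lies at 139 intensity units. It kept 14 of the 16 member probe sets and at least 1 for each of the 8 genes. Over those 14, 0 passed limma with Benjamini-Hochberg adjustment at 0.05, where 0.115% of all 26961 probe sets passed. An unadjusted p under 0.05 in limma was reached by 1 of 14, against a background of 10.1%. For 4 of 14 the arrays of 46 h and 54 h were fully separated, against 15.5% of all probe sets. The lowest limma adjusted p was 0.328. The 95% confidence intervals excluded a 2-fold change for all 14 probe sets and a 1.5-fold change for 12. The exceptions were 1 probe set each of Stx1a and Cpe. The brightness of a probe set depends on its probes, so levels are compared between arrays but not between genes.

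**Figure D1:**
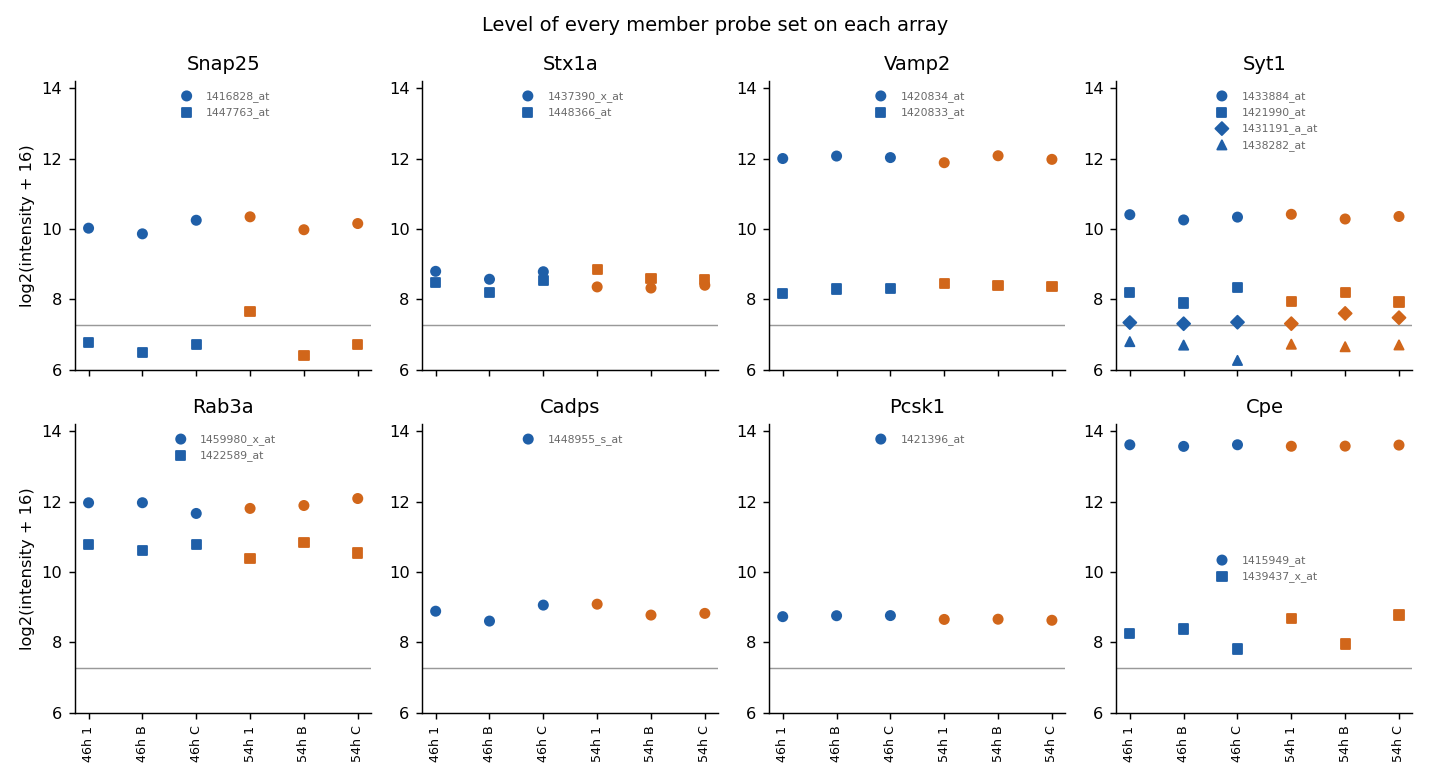
Level of each of the 16 member probe sets on each of the 6 arrays, as log2(intensity + 16), with 46 h arrays in blue and 54 h arrays in orange; marker shapes name the probe sets and the grey line is the filter on low values. Most probe sets keep nearly the same height across arrays, the 2 Stx1a probe sets change places between the time points, and 1 probe set each of Snap25 and Syt1 lies under the filter.

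SNAP-25 is the plasma membrane SNARE that contributes a pair of helices to the fusion complex. At 46 h its main probe set read 1023, 914 and 1199 units in the order of replicates 1, B and C, which is kept below, and at 54 h 1284, 992 and 1123 units. The ranges overlapped, and the log2 change was 0.12 ± 0.13 SE (limma adjusted p = 0.810). Leaving out replicate 1 of 54 h gave 0.023 and replicate B of 46 h 0.024, whereas leaving out replicate B of 54 h gave 0.21 and replicate C of 46 h 0.22. The other Snap25 probe set lay under the filter, with 74.2 to 94.3 units at 46 h. At 54 h it read 186 units on replicate 1 and 68.5 and 89.9 units on replicates B and C, so 1 array stood apart and the others did not. It was not tested.

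Syntaxin-1A, the product of Stx1a, is the plasma membrane partner of SNAP-25. Its probe set 1437390_x_at read 428, 364 and 425 units at 46 h and 311, 304 and 322 units at 54 h, with no overlap. The mean was 406 ± 36.1 units at 46 h and 312 ± 9.11 units at 54 h (SD, n = 3 each). In limma the log2 change was -0.36 (SE 0.11), with a 95% interval from -0.61 to -0.11 and an adjusted p of 0.328. Probe set 1448366_at read the other way, with 340, 279 and 353 units at 46 h and 443, 369 and 360 units at 54 h, again with no overlap. Its means were 324 ± 39.7 and 390 ± 45.7 units (SD, n = 3 each), and its log2 change was 0.26 ± 0.13 SE (limma adjusted p = 0.558). Neither passed the test.

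Which direction Stx1a is given therefore depends on the probe set. The log2 difference between the probe sets, 1448366_at minus 1437390_x_at, was -0.32, -0.37 and -0.26 on the 46 h arrays and 0.49, 0.27 and 0.15 on the 54 h arrays. The shift between time points was 0.62, and an exact two-sided permutation test of 3 against 3 arrays gave p = 0.10, the smallest that this design allows. Adjusted over the 7 pairs of member probe sets tested this way, a test added after the values were seen, it was 0.35. The same permutation test gave p = 0.10 for the Vamp2 pair too, 0.35 adjusted, with a smaller shift of 0.20. Among the 46 h arrays both Stx1a probe sets read lowest on replicate B. Among the 54 h arrays 1437390_x_at read lowest on replicate B and 1448366_at on replicate C. Averaged over both probe sets, Stx1a had a log2 change of -0.05 (limma adjusted p = 0.906). In Affymetrix naming, the ending _x_at marks a set with probes that can also bind other transcripts. Of 5811 genes with at least 2 probe sets past the filter, 52% had probe sets with opposite signs. In 1.24%, 1 was higher and 1 was lower without overlap, as for Stx1a. Opposite signs were also found in Vamp2, Syt1, Rab3a and Cpe, the other members with at least 2 such probe sets.

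**Figure D2:**
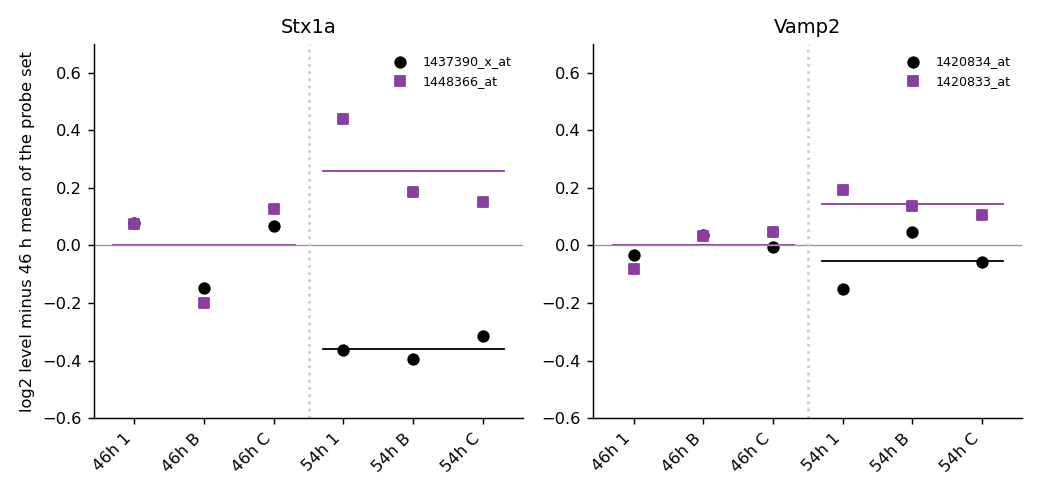
Log2 level of each probe set of Stx1a and Vamp2 on the 6 arrays, relative to its own 46 h mean; short lines are group means. The 46 h means coincide by construction. At 54 h the Stx1a probe sets separate into log2 changes of 0.26 and -0.36. Those of Vamp2 also differ in sign, at 0.15 and -0.05, and lie 0.20 apart.

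VAMP2, or synaptobrevin-2, is the SNARE of the granule membrane. Probe set 1420834_at read 4078, 4282 and 4156 units at 46 h and 3756, 4308 and 4011 units at 54 h. The 54 h arrays bracketed those of 46 h, and the log2 change was -0.05 ± 0.06 SE (limma adjusted p = 0.821). The second probe set, 1420833_at, read 273, 298 and 300 units at 46 h and 334, 321 and 313 units at 54 h. These ranges did not overlap, but the log2 change of 0.15 ± 0.11 SE did not pass (limma adjusted p = 0.689).

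Synaptotagmin-1, encoded by Syt1, is a calcium sensor for fast fusion. Its probe set 1433884_at read 1340, 1206 and 1276 units at 46 h and 1350, 1229 and 1293 units at 54 h. The log2 change was 0.02 ± 0.08 SE, and its 95% interval ran from -0.17 to 0.21 (limma adjusted p = 0.962). Of the others, 1421990_at had a log2 change of -0.11 and 1431191_a_at one of 0.13, both with overlapping ranges. The last, 1438282_at, lay under the filter at 60.9 to 95.4 units over all 6 arrays.

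Rab3a is the small GTPase that tethers granules near the plasma membrane. Probe set 1459980_x_at read 3988, 3994 and 3230 units at 46 h and 3568, 3780 and 4339 units at 54 h. The log2 change was 0.06 ± 0.10 SE (limma adjusted p = 0.882). Probe set 1422589_at read 1748, 1542 and 1739 units at 46 h and 1318, 1818 and 1476 units at 54 h, where the log2 change was -0.13 ± 0.12 SE (limma adjusted p = 0.752). The signs differed, and for both probe sets the ranges of the time points overlapped. Cadps encodes CAPS1, which primes dense-core granules for fusion. It read 458, 374 and 519 units at 46 h and 528, 423 and 438 units at 54 h, and its log2 change was 0.04 ± 0.14 SE (limma adjusted p = 0.945).

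Snap25, Syt1 and Cadps varied together over the 6 arrays. Pearson's r of log2 levels was 0.93 for Snap25 with Cadps, 0.75 for Syt1 with Cadps and 0.70 for Syt1 with Snap25. In all 3 genes replicate B read lowest among the 46 h arrays and again among the 54 h arrays. Vamp2 ran the other way, with r of -0.86 with Syt1, -0.81 with Snap25 and -0.69 with Cadps. Of the 28 pairs of member genes, with the brightest probe set standing for a gene, 14 had r above 0, over a range from -0.86 to 0.93. These values describe 6 arrays that share a platform, a scale and the mixed tissue of the gland. Between probe sets of the same gene r ran from -0.45 to 0.21 over 7 pairs, so at these small changes the probe sets of a gene did not follow each other across arrays.

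**Figure D3:**
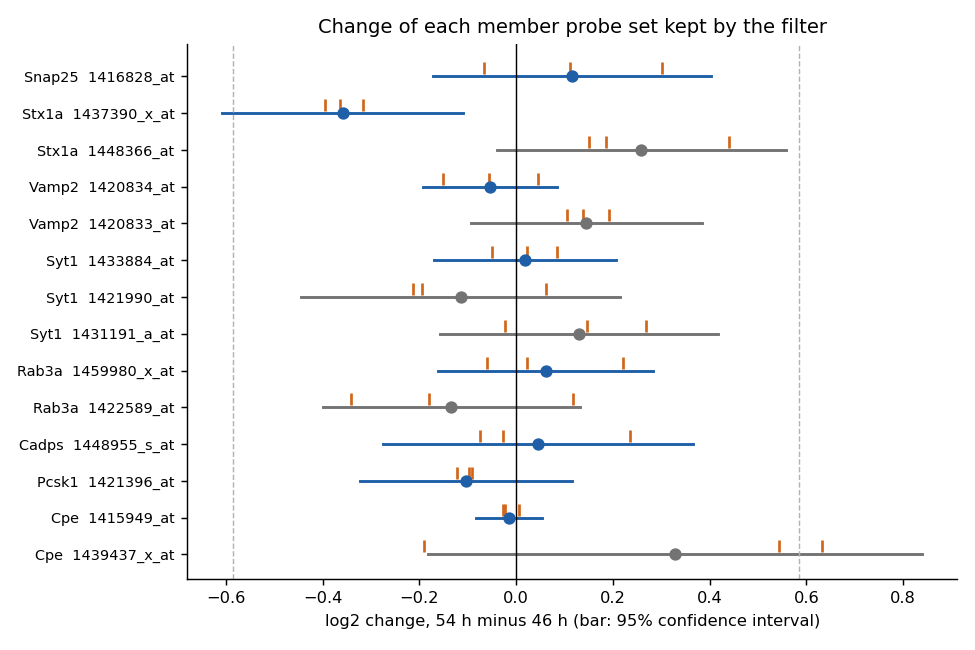
Log2 change from 46 h to 54 h of the 14 member probe sets past the filter, with 95% confidence intervals from limma; blue marks the brightest probe set of a gene, grey the others, and orange ticks show each 54 h array against the 46 h mean. Dashed lines mark a 1.5-fold change. The intervals of 1437390_x_at (Stx1a) and 1439437_x_at (Cpe) reach past these lines, and the interval of Stx1a alone leaves out 0.

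Pcsk1 encodes PC1/3, the convertase that makes the first cuts in prohormones. Its single probe set read 410, 418 and 419 units at 46 h and 387, 389 and 380 units at 54 h. Replicates were close, at 415 ± 4.98 and 385 ± 4.43 units (SD, n = 3 each), and the time points did not overlap. The log2 change was -0.10, and it ran from -0.11 to -0.09 when each array was left out in turn. With limma's SE of 0.10, which draws on the spread of probe sets of similar level, the change did not pass (adjusted p = 0.767), and its 95% interval ran from -0.32 to 0.11.

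Cpe encodes carboxypeptidase E. Probe set 1415949_at read 12524, 12137 and 12534 units at 46 h and 12167, 12202 and 12451 units at 54 h, and the ranges overlapped. Its log2 change was -0.01 ± 0.03 SE, with a 95% interval from -0.08 to 0.05 (limma adjusted p = 0.914). The highest signal in the table was 17879 units. The dimmer set 1439437_x_at read 288, 317 and 209 units at 46 h and 398, 233 and 424 units at 54 h. Its log2 change was 0.33 ± 0.23 SE (limma adjusted p = 0.668), with 54h replicate B below the 46 h mean and the other 54 h arrays above it.

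Promoter windows were read for the members because the clock acts through E-boxes and stimulation of the gland through cAMP. RefSeq windows (GRCm38.p6, from 250 bases before to 50 bases after a transcript start) were found for 6 of the 9 genes, 8 windows in all. The E-box CACGTG was found in 0 of the 8, against 7.15% of all 32851 windows. The half-site of the cAMP response element, TGACG on either strand, was found in 4 of the 8, those of Pcsk1, Stx1a and Pcsk2 and the first of Rab3a, against 20.8% of all windows. The full element TGACGTCA, in which half-sites of both strands overlap, was found in the Pcsk1 window and in 1.79% of all windows. It starts 78 bases before the transcript start, and a further half-site starts 50 bases before it. These are matches of letters and not shown binding sites. A link between these matches and the changes from 46 h to 54 h was not tested. Shown are the windows of the measured genes with a half-site. Capitals mark the half-sites, TGACG or its reverse complement. The windows are Pcsk1 at chr13:75089607-75089906, Stx1a at chr5:135023232-135023531 and Rab3a at chr8:70754453-70754752, all on the plus strand.
Pcsk1: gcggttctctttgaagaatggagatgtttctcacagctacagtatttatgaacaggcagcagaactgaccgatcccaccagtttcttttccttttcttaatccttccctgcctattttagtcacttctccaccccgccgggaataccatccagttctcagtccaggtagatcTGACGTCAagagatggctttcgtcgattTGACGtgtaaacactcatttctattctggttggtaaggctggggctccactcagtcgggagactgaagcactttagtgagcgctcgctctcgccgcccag
Stx1a: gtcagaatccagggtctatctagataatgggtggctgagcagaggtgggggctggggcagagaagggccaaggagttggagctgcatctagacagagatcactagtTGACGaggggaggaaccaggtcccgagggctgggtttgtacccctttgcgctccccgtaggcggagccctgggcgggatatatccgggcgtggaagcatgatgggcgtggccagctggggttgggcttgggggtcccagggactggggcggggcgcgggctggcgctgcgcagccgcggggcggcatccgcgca
Rab3a: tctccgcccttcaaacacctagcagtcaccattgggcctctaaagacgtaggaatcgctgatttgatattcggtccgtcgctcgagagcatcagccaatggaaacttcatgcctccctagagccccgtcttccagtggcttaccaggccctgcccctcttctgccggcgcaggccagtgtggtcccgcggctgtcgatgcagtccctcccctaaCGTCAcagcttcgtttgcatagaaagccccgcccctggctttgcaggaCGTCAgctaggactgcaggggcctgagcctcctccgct

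The partners of these proteins were taken from 4 lists with 70 genes, of which 64 had a probe set past the filter. Of the 64 genes 0 passed limma at an adjusted p of 0.05, against 0.109% of all genes. An unadjusted p under 0.05 was reached in limma by 8, of which 1 was higher and 7 lower, where 10.3% of all genes reached that level. Of the 64 genes, 44 were lower at 54 h whatever the p, against 56.7% of all genes, and the median log2 change was -0.05. In 11 genes the arrays of 46 h and 54 h were fully separated, against 16.3% of all genes.

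Among SNARE partners and assembly factors 7 genes were higher and 14 lower, with a median log2 change of -0.05. Vamp1, another synaptobrevin, read 382, 497 and 454 units at 46 h and 255, 299 and 384 units at 54 h. Its log2 change was -0.50 ± 0.16 SE (limma adjusted p = 0.336), and the ranges overlapped by 1 array. Stxbp3, a syntaxin-binding protein of the Munc18 family, had -0.15 ± 0.07 SE with no overlap, and Vamp8, a SNARE of endosomes and secretory granules, had -0.12 ± 0.06 SE. The calcium sensors and priming factors had 6 genes higher and 5 lower and a median of 0.01. There the Munc13-related gene Baiap3 read 847, 699 and 808 units at 46 h and 646, 614 and 603 units at 54 h, so that it was lower by a log2 difference of -0.33 ± 0.10 SE (adjusted p in limma 0.334). Syt17 had -0.25 ± 0.13 SE and Syt7, a calcium sensor for slower release, 0.14 ± 0.10 SE. In the Rab3 and Rab27 cycle 4 genes were higher and 14 lower, with a median of -0.05. Rab3il1, an exchange factor that acts on Rab proteins, had -0.29 ± 0.12 SE, Rph3al, a Rab effector, -0.18 ± 0.09 SE and Rab3c, a relative of Rab3a, -0.18 ± 0.09 SE. All these values are from the brightest probe set. Averaging each gene's probe sets gave smaller drops of -0.06 for Stxbp3, -0.15 for Rab3il1, -0.05 for Rph3al and -0.12 for Rab3c. Syt7 then had 0.17, and Vamp1, Vamp8, Baiap3 and Syt17 did not move.

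In the list of prohormone processing genes 3 were higher and 11 lower, with a median log2 change of -0.12. Of its 14 genes 5 reached an unadjusted p of 0.05 in limma, 4 of them lower, against a background of 6.2% of all genes that were lower at that level. Ptprn, which encodes the dense-core granule membrane protein IA-2, read 3329, 3077 and 2998 units at 46 h and 2654, 2610 and 2513 units at 54 h. Its means were 3135 ± 173 and 2593 ± 72.0 units (SD, n = 3 each), and limma gave a log2 change of -0.27 ± 0.06 SE with an adjusted p of 0.200. Its relative Ptprn2 averaged 1153 ± 41.3 units at 46 h and 935 ± 28.6 units at 54 h (SD, n = 3 each), with -0.30 ± 0.08 SE on the log2 scale (adjusted p in limma 0.273). In the brightest probe set of both genes every 54 h array lay below every 46 h array. With the mean over probe sets the log2 change of Ptprn2 was -0.22 (limma adjusted p = 0.534), and that of Ptprn did not move.

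The next genes were singled out after their values were seen, because their products bind the convertases. Pcsk1n encodes proSAAS, an inhibitor of PC1/3, and read 2957, 2561 and 2911 units at 46 h and 2391, 2432 and 2268 units at 54 h. Its log2 change was -0.25 ± 0.07 SE (limma adjusted p = 0.317). Scg5 encodes 7B2, the chaperone of PC2, and read 2246, 1953 and 2382 units at 46 h and 1808, 1891 and 1716 units at 54 h. Its log2 change was -0.28 ± 0.09 SE (limma adjusted p = 0.335). Neither gene overlapped between time points, and in both 46h replicate B lay closest to the 54 h arrays. Pcsk5, a convertase of broader distribution, was the one of the 5 that read higher, by 0.26 ± 0.07 SE on the log2 scale for 1437339_s_at (adjusted p in limma 0.250). Furin, a convertase of the secretory pathway, read 4307, 4421 and 4269 units at 46 h and 4760, 4423 and 5013 units at 54 h, and its log2 change was 0.13 ± 0.06 SE (adjusted p in limma 0.512). The ranges were separate by a few units only, between the B replicates. It was singled out after its values were seen. As with Stx1a the probe sets of Pcsk5 disagreed: 1452475_at lay outside the 46 h range in the other direction, with -0.46 ± 0.11 SE (limma adjusted p = 0.193).

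**Figure D4:**
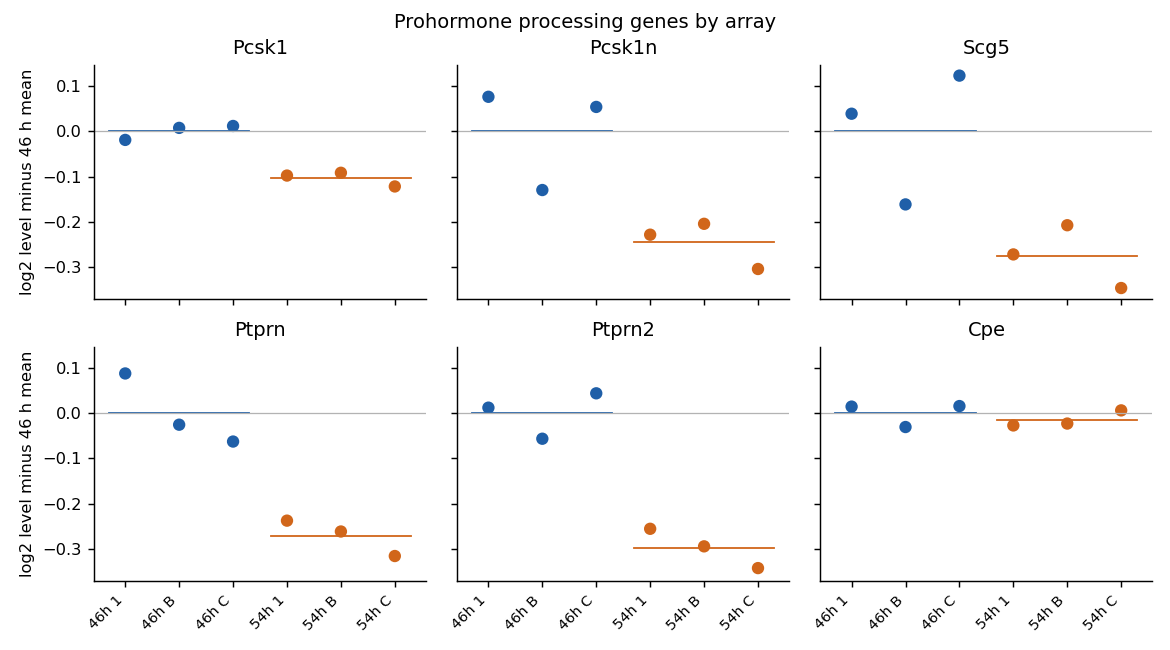
Log2 level of the brightest probe set on each array, relative to the 46 h mean. The genes are the members Pcsk1 and Cpe and the partners Pcsk1n, Scg5, Ptprn and Ptprn2, and short lines are group means. The 54 h arrays lie below the 46 h arrays in all genes shown but Cpe, with log2 changes from -0.30 for Ptprn2 to -0.10 for Pcsk1.

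Markers of the chromaffin cells, which use this machinery to release their granules, also read slightly lower at 54 h. Of 14 markers past the filter 13 were lower, where 56.7% of all genes were, and the median log2 change was -0.08 against -0.02. None passed limma at an adjusted p of 0.05. An unadjusted p of 0.05 was reached by 3, all lower, where 6.2% of all genes were lower at that level: Scg2 with -0.13, Chga with -0.11 and Npy with -0.08. The summed level of the 14 markers, in which bright genes weigh most, was 93861 to 99027 units at 46 h and 90268 to 94871 units at 54 h. Those ranges overlapped. The mean log2 level of the 14, relative to 46 h, was -0.051 to 0.036 at 46 h. At 54 h it was -0.092 to -0.064, without overlap. Th, the rate-limiting enzyme of catecholamine synthesis, had -0.05, Dbh -0.01, Ddc -0.08, Pnmt -0.13, Slc18a1 -0.09, Slc18a2 -0.26, Syp -0.06, Chgb -0.07, Cyb561 -0.07, Gata3 -0.10 and Phox2a 0.11. In whole glands, fewer medullary cells and less RNA per cell cannot be told apart. With the mean of these markers as a covariate the log2 change was -0.0059 for Scg5 and -0.05 for Pcsk1n. It was -0.26 for Ptprn and -0.21 for Ptprn2 (limma adjusted p of these genes from 0.388 to 0.988). The marker mean was itself separated by time point, so this fit cannot tell the markers from time. The part of the chromaffin markers in these changes was not tested.

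**Figure D5:**
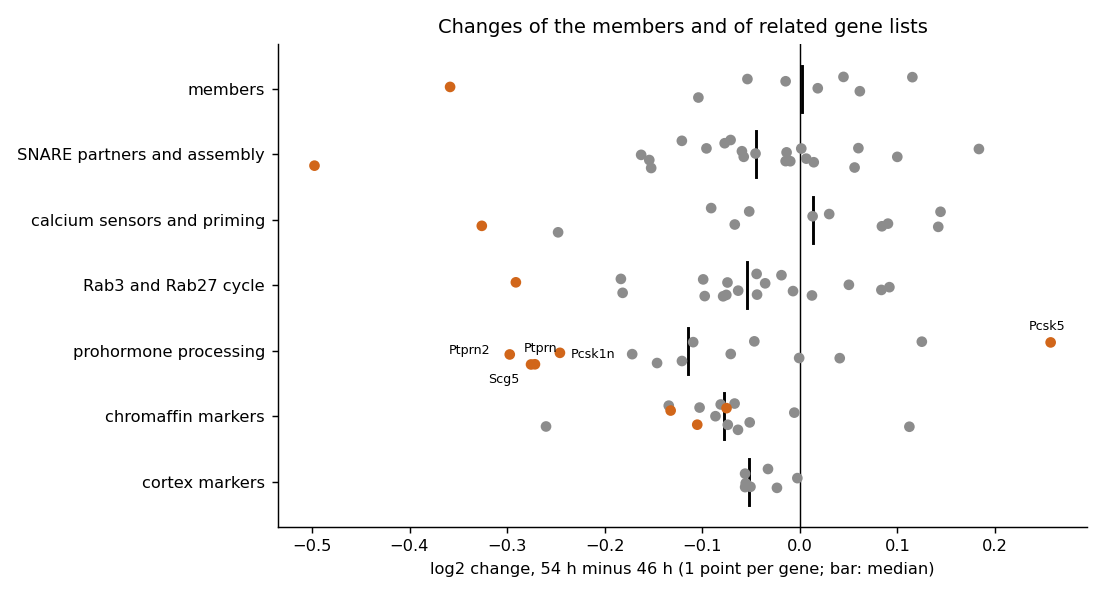
Log2 change per gene (brightest probe set) for the 8 members, the 4 lists of partners, and markers of chromaffin and cortical cells; black bars are medians and orange points reached an unadjusted p of 0.05 in limma. The median is 0.0020 for the members, -0.12 for prohormone processing and -0.08 for chromaffin markers.

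The 8 markers of cortical cells were all lower by 0.06 or less on the log2 scale, with 0 at an unadjusted p of 0.05 in limma and 0 past the adjusted threshold. Markers of neurons and Schwann cells, which also use SNARE proteins, were split, 5 higher and 5 lower among 10, with summed levels of 2659 to 2866 units at 46 h and 2607 to 2810 units at 54 h. Liver markers were higher at 54 h in 7 of 7 genes, with a median log2 change of 1.10. Of these, Serpina1b and Cyp3a11 passed limma (adjusted p = 0.0343 and 0.0424). The summed levels of the 7 genes were 3497 to 5559 units at 46 h and 7751 to 11599 units at 54 h. With the liver markers as a covariate the log2 changes of Scg5, Pcsk1n, Ptprn2 and Ptprn were -0.57, -0.46, -0.36 and -0.30 (limma adjusted p from 0.194 to 0.370). Of the 5 pituitary and islet hormones listed, 3 were past the filter and all 3 were lower at 54 h, with 0 past limma's adjusted threshold and 1 at an unadjusted p of 0.05. Of these hormones of other glands that express this machinery, Gh, the growth hormone gene, read 842 units on 46h replicate B, 622 units on replicate C and 288 to 340 units on the other 4 arrays. A dimmer Gh probe set, 1437522_x_at, read 290 and 196 units on those arrays and 20.4 to 24.9 units on the others. Among the 46 h arrays Scg5, Pcsk1n and Ptprn2 read lowest on replicate B, where Gh was highest, and Ptprn on replicate C. Without 46h replicate B the log2 changes of Scg5, Pcsk1n, Ptprn2 and Ptprn were -0.36, -0.31, -0.33 and -0.28. Without 46h replicate C they were -0.21, -0.22, -0.28 and -0.30. The liver markers too were separated by time point, so the fit with them as a covariate cannot tell them from time. The part of the liver and Gh signals in the results was not tested.

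Genes whose levels ran most like the members over the 6 arrays were found by Pearson's r with the mean profile of the 8 genes. Among 13772 other genes these were Slc30a10 (r = 0.998), Synpo2l (0.985), Svep1 (0.979), Shfl (0.974) and Rtbdn (0.973). For Pcsk1 alone they were Timm21 (r = 0.995), Tnip1 (0.995) and Snhg1 (0.995), and for Cpe alone Ccn4 (0.996), Il18bp (0.991) and Ttc38 (0.958). None of these genes is on the lists of partners or of chromaffin markers, and with 6 points and this many genes the ranking is a description only.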

How the data were processed

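Each array gave 1 intensity per Affymetrix probe set, on a linear scale, in a table the authors deposited; summarisation, background correction and normalization are not given in the sources used here. Of 45001 rows, 64 controls, 1 row without values and 1 with a damaged value were left out. Array medians were 204 to 217 units, and after the filter differed by 0.07 on the log2 scale, so no further scaling was applied. Gene names came from the platform's annotation, where the gene ID changed 0 symbols in RefSeq (GRCm38.p6). Values were taken as log2(intensity + 16), which understates changes of dim probe sets. The 54 h and 46 h arrays entered a two-sided comparison over all 26961 probe sets kept, using lmFit and trended eBayes of limma 3.58.1 (R 4.3.3). Figures used Python 3.11.15 and matplotlib 3.10.9, and the fit was tested on simulated data. In 10 simulated data sets it recovered 6.8% of changes of 1.25-fold, 32.6% of 1.5-fold and 69% of 2-fold. Most changes of 1.5-fold or less would therefore not be called with these arrays.

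A gene was read from its probe set with the highest mean. Members and lists were chosen with earlier results of these data known. Named genes were all members, every chromaffin marker past the filter, the 3 partners with the smallest p in each list and up to 3 other markers a list. Pcsk1n, Scg5 and Furin were added after their values were seen. Alternatives were other offsets, filters, scalings and variance models, marker covariates, the replicate block and leaving out each array.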

Additional observations from a re-analysis of the deposited data

How the results depend on the processing

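Counts of called genes did not move: 0 of 8 member genes, 0 of 14 kept member probe sets and 0 of 64 partners passed limma under each alternative run (the mean over probe sets has no value for probe sets). The median log2 change of the members, 0.0020, was 0.029 with arrays centred on their medians, 0.025 with quantile normalization, 0.028 with the mean over probe sets, -0.020 with the chromaffin covariate, -0.080 with the liver covariate, and -0.032 to 0.024 when single arrays were left out. For the partners, -0.05 became -0.0024 and -0.14 with the chromaffin and liver covariates. The cause was not tested.

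Some signs turned. Cpe was 0.012 with centring, 0.0080 with quantile normalization, 0.022 with the chromaffin covariate and 0.16 with the mean over probe sets. Rab3a was -0.17 with the chromaffin covariate and -0.036 with the mean over probe sets, and Vamp2 0.046 with that mean. Pcsk5 went from 0.26 to -0.058 with that mean. Syt17 went from -0.25 to 0.065 with the chromaffin covariate, and with the liver covariate Syt1 was -0.0043 and Cadps -0.11. Leaving out single arrays gave -0.078 to 0.15 for Cadps, -0.040 to 0.12 for Rab3a and -0.020 to 0.055 for Syt1. With the sign kept, it gave 0.023 to 0.22 for Snap25 and -0.10 to -0.0050 for Vamp2. The chromaffin covariate gave 0.34 for Snap25. For the Stx1a probe sets 1437390_x_at and 1448366_at the chromaffin covariate gave -0.18 and 0.52 and the liver covariate -0.55 and 0.13. Of the partners, 5 in place of 8 reached an unadjusted p of 0.05 in limma with the mean over probe sets and 12 with the liver covariate.

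Same-labelled arrays did not deviate together from the means of their time points (r of -0.06, -0.41 and -0.49 for 1, B and C). Among arrays with different labels r reached 0.46, for 46h replicate B with 54h replicate C. Deviations from the mean of 3 arrays constrain each other, so these values cannot show whether the labels pair arrays. The main fit used no pairing. With the replicate block 0 members and 0 partners passed, and 7 partners reached an unadjusted p of 0.05. The number of arrays limits the precision.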
